A study of Homo sapiens with 9 samples.

Results

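The fibrillar collagen genes described here are COL1A1, COL1A2, COL2A1, COL3A1, COL5A1, COL5A2, COL5A3, COL11A1, COL11A2 and COL27A1. They were picked by gene symbol, and all 10 were found among the 27111 genes of the deposited tables. Their RNA was measured by RNA-seq in multicellular tumor spheroids (MTSs) of PC-3, an established human prostate cancer cell line. Cells were stably transduced with a lentiviral pSIN vector that was empty (Empty) or carried the long (NF-YAl) or the short (NF-YAs) splice isoform of NF-YA, and all 3 lines were selected with puromycin and grown as spheroids in medium with Matrigel. Each line gave 3 libraries of pooled MTSs, with replicate letters A to C, except that NF-YAl has D in place of C, so a line is 1 transduced population and the replicates measure the spread between spheroid cultures. The question was how each NF-YA isoform, raised above the level of the control line, alters the RNA of the spheroids.

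Fibrillar collagens are made as pro-alpha chains that wind into a triple helix in the endoplasmic reticulum, lose their terminal propeptides after secretion and pack into banded, cross-linked fibrils. Type I (COL1A1, COL1A2) and type III (COL3A1) are the main fibrils of stroma, type II (COL2A1) is that of cartilage, and types V (COL5A1, COL5A2, COL5A3) and XI (COL11A1, COL11A2) are minor chains that start fibrils and set their width. Type XXVII (COL27A1) has a shorter, interrupted helix. NF-YA is the DNA-contacting subunit of NF-Y, a trimer that binds the CCAAT box and is known to act at the promoters of both type I collagen genes.

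COL1A1 was 3.17-fold and COL27A1 2.74-fold higher in NF-YAs than in Empty MTSs. COL3A1 was 4.12-fold higher in NF-YAl than in Empty MTSs, a call that was lost without any 1 of 3 libraries. In NF-YAs it was 3.01-fold higher and narrowly missed the threshold, and the overexpressing lines were not shown to differ in it. A pair of chains expressed near the detection limit, COL5A3 and COL1A2, were also highest in NF-YAs. COL5A2, the most abundant member in all 3 lines, and COL5A1, the second in Empty and the third in the others, were not called in any comparison.

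All 9 libraries held 18076979 to 27163976 expected counts, the RSEM estimates of reads per gene. The total of NFYA was higher in both overexpressing lines, with 89.3 to 96.7 CPM (counts scaled to library size) in the Empty libraries, 286.9 to 383.1 in NF-YAl and 254.0 to 264.5 in NF-YAs. Its longer transcript was at 5.91 to 10.2 TPM (RSEM's length-corrected level) in Empty, 17.6, 19.9 and 76.6 TPM in NF-YAl A, B and D, and 4.89 to 14.0 TPM in NF-YAs. Its shorter transcript was at 6.23 to 14.0 TPM in Empty but at 39.3 to 47.6 TPM in NF-YAl, which overlaps the 38.4 to 49.4 TPM in NF-YAs, so the isoform in the label NF-YAl was not the main one assigned in replicates A and B. The share of the longer transcript was 29.7 to 62.1% in Empty, 29.5 to 66.1% in NF-YAl and 9.02 to 23.0% in NF-YAs, so this share did not set NF-YAl apart from Empty; the transgenes are murine, and their reads could not be told from those of the endogenous gene. Keratins 8, 18 and 19 were abundant in all libraries, and KLK3 was listed at 0. Of 15 mesenchymal markers, VIM (529 to 868 TPM per group), FN1 (170 to 236 TPM) and CDH2 (20.7 to 35.8 TPM) were also abundant, whereas THY1, DCN, LUM, FAP, POSTN, TCF21 and PDGFRB had group means of at most 0.15 TPM. In bulk spheroid RNA, fewer cells of a kind and less RNA per cell cannot be told apart.

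Sequence is shown for the promoters of 2 members that rose with NF-YAs, since NF-Y recognises the letters CCAAT, or ATTGG on the other strand. The RefSeq promoter table (GRCh38.p14), from which these windows of 250 bases before to 50 bases after a transcript start were read, holds 5 of the 10 members, COL5A1, COL5A3, COL11A1, COL11A2 and COL27A1; COL1A1, COL1A2, COL2A1, COL3A1 and COL5A2 are not in it. Each window matched GRCh37 once. The COL5A3 window lies on the minus strand at chr19:10121131-10121430 and the COL27A1 window on the plus strand at chr9:116917567-116917866. Capitals mark CCAAT.
COL5A3: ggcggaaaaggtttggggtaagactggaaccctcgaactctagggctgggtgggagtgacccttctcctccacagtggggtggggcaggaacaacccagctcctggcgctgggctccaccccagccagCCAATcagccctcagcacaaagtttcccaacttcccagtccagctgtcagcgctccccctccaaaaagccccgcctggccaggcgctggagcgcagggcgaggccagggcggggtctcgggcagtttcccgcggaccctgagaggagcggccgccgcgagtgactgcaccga
COL27A1: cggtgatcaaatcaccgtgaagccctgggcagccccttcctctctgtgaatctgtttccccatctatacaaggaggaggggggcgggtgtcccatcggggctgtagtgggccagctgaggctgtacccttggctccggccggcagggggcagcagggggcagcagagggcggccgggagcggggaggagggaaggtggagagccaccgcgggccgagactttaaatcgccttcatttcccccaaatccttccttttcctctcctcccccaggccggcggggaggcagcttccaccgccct
The COL5A3 window has a single match, starting at position -122 from the transcript start, and the COL27A1 window has none. Either orientation of the letters occurs in 34.6% of all 35116 promoter windows of the table. Among the other members, COL11A1 has ATTGG at position -110, 2 of the 4 windows of COL11A2 have a match, and neither window of COL5A1 has one. A match describes letters and is no evidence of binding, and no match says only that these letters are not in this window.

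Levels were compared between genes by TPM, which accounts for transcript length. In Empty MTSs the order ran from COL5A2 (97.7 ± 17.2 TPM, SD, n = 3) and COL5A1 (28.7 TPM) to COL3A1 (8.47 TPM), COL1A1 (7.74 TPM), COL27A1 (4.14 TPM) and COL11A2 (1.59 TPM). COL3A1, at 4.81 to 13.6 TPM, overlapped both COL1A1 (6.87 to 9.35 TPM) and COL27A1 (3.32 to 5.28 TPM), so the order of these neighbours is within their spread. COL2A1, COL5A3, COL1A2 and COL11A1 averaged 0.09 TPM or less. The type V genes together held 82.8 to 86.6% of the summed TPM of the 10 genes in Empty, 72.1 to 84.4% in NF-YAl and 64.4 to 70.4% in NF-YAs libraries, and COL5A2 ranked first in every group. In NF-YAs MTSs COL3A1 (25.5 to 34.3 TPM), COL5A1 (26.5 to 29.4 TPM) and COL1A1 (23.9 to 30.1 TPM) overlapped, although COL5A1 lay well above both others in Empty MTSs.

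**Figure D1:**
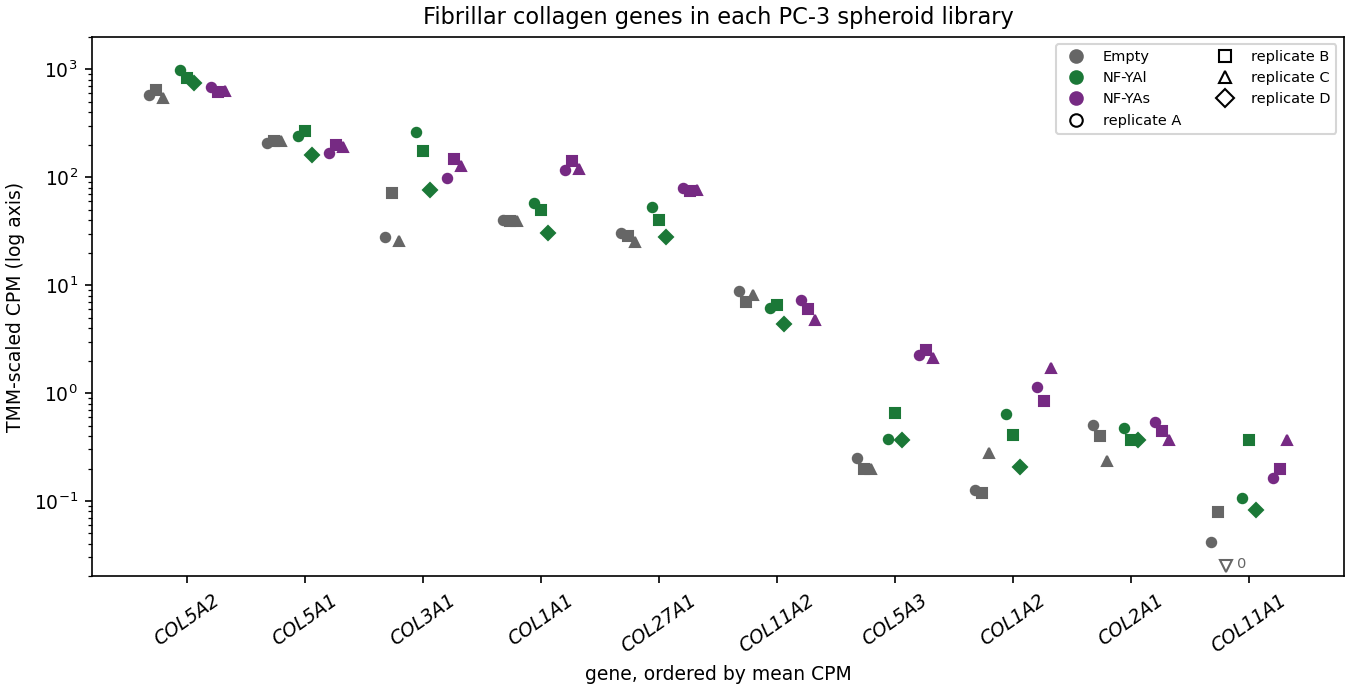
TMM-scaled CPM (log axis) of the 10 fibrillar collagen genes in each library, with the line in colour and the replicate letter as the symbol. The open triangle marks COL11A1 in Empty replicate C, with a count of 0. COL1A1, COL27A1 and COL5A3 in all 3 NF-YAs libraries lie above all Empty and all NF-YAl libraries.

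For comparisons between libraries, CPM scaled by edgeR's trimmed mean of M-values (TMM) were used instead of TPM. Genes of at most 500 nt, among them abundant noncoding RNAs, took 26.8% of TPM in NF-YAl replicate D and 48.8 to 62.0% in the other 8 libraries, which moves the TPM of all other genes. A gene was called when its p from edgeR's quasi-likelihood F test, adjusted over all 17108 tested genes by Benjamini-Hochberg, was under 0.01 and its |log2 fold change| (log2FC) was above 1. Of the 10 members, 9 passed the expression filter and COL11A1 did not. COL5A3 and COL1A2 passed it only through the libraries in which they were high, since no Empty library and 1 NF-YAl library reached the filter's 0.442 CPM. In NF-YAl against Empty 1 member was called up and 0 down, beside 4.76% of all tested genes called up and 3.5% called down. In NF-YAs against Empty 4 were called up and 0 down, where the background was 5.44% up and 3.9% down. In NF-YAl against NF-YAs 0 were called up and 2 down, with 1.74% and 2.86% of all genes called. The median log2FC over all tested genes was 0.01, 0.00 and 0.02 in these 3 comparisons. DESeq2 called the same numbers. At an unadjusted p under 0.05 by either tool, 1 member (COL11A2) was lower in NF-YAl than in Empty, 0 were lower in NF-YAs than in Empty and 1 (COL5A2) was higher in NF-YAl than in NF-YAs. The first 2 comparisons share the Empty libraries and are not independent.

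**Figure D2:**
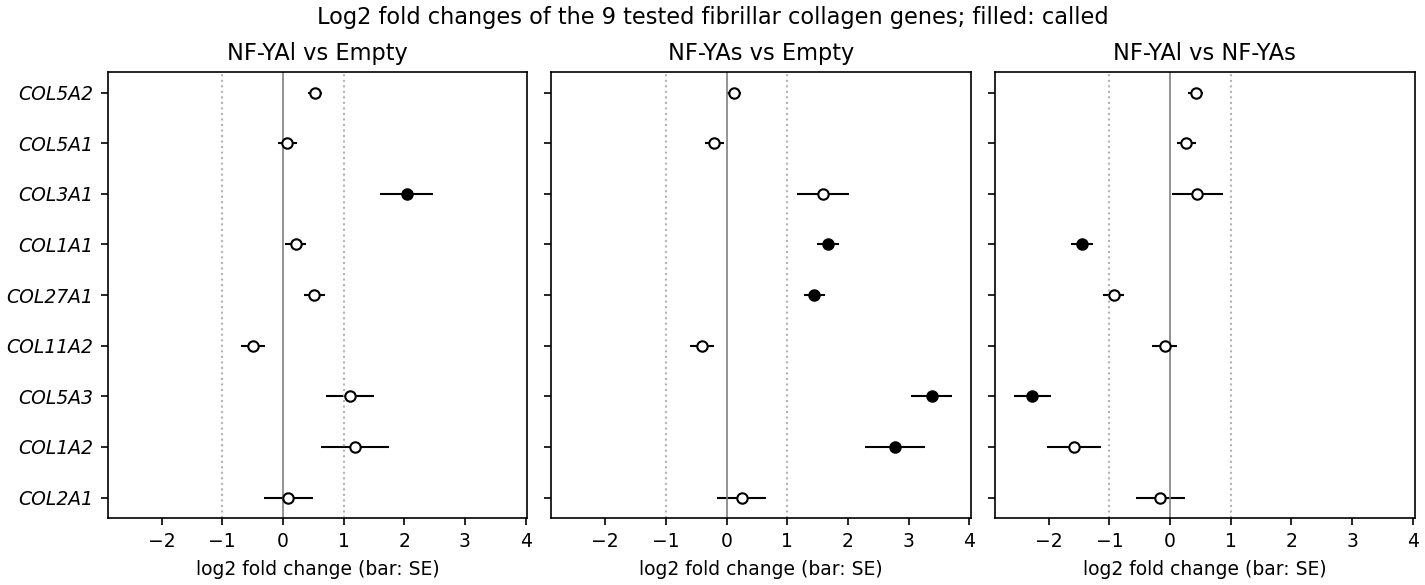
Log2 fold changes of the 9 tested members with their standard errors (bars) in the 3 comparisons, where filled points are called and dotted lines mark the fold limit of 1 in either direction. The called genes are COL3A1 in NF-YAl against Empty, COL1A1, COL27A1, COL5A3 and COL1A2 in NF-YAs against Empty, and COL1A1 and COL5A3, both lower in NF-YAl, in the direct comparison.

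COL1A1 encodes the alpha1 chain of type I collagen and lies on the minus strand at chr17:48261462-48278993 of GRCh37. Its level was 40.3, 39.4 and 39.4 CPM in Empty A, B and C, 57.2, 50.1 and 30.6 CPM in NF-YAl A, B and D, and 117.8, 140.8 and 118.8 CPM in NF-YAs A, B and C. The NF-YAs libraries lay above all others, and the NF-YAl libraries spread to both sides of Empty. The log2FC was 1.67 (SE 0.181, adjusted p = 3e-05 by edgeR) in NF-YAs against Empty and -1.45 (SE 0.18, adjusted p = 0.000212) in NF-YAl against NF-YAs. In NF-YAl against Empty it was 0.21, with a 95% interval of -0.14 to 0.56, and did not pass (adjusted p = 0.407). By TPM, NF-YAl replicate D, the lowest of all libraries by CPM, exceeded every Empty library (10.5 against 6.87 to 9.35 TPM). The 100 tested genes flanking COL1A1, equally many on each side, had a median log2FC against Empty of 0.54 (NF-YAs) and 0.33 (NF-YAl). Both were above the genome-wide medians. The part of this region in the result was not tested.

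COL1A2 encodes the alpha2 chain, the usual partner of alpha1 in type I collagen (plus strand, chr7:94024207-94060539). The NF-YAs libraries A, B and C had 21, 17 and 37 counts of it, whereas NF-YAl A, B and D had 12, 10 and 5, and Empty A, B and C had 3, 3 and 7. All NF-YAs libraries were above all others, at 0.846 to 1.71 CPM, while Empty and NF-YAl overlapped. The log2FC was 2.78 (SE 0.497, adjusted p = 0.00101 by edgeR) in NF-YAs against Empty. COL1A2 was tested only because it reached the filter in NF-YAs, so this p-value is no separate support for the rise. Neither NF-YAl comparison was called, with 1.19 against Empty (adjusted p = 0.132 by edgeR) and -1.59 against NF-YAs (adjusted p = 0.0231). COL1A1 exceeded COL1A2 by TPM in every library, by 137.4 to 350.5-fold in Empty, 82 to 131.4-fold in NF-YAl and 63.0 to 150.4-fold in NF-YAs. So RNA of the alpha2 chain was scarce in all 3 lines, and the ratio rests on few COL1A2 counts.

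COL3A1, the single chain of type III collagen (plus strand, chr2:189839099-189877472), varied most within a line among the abundant members. Empty A, B and C had 27.8, 70.8 and 25.5 CPM, NF-YAl A, B and D had 261.2, 174.3 and 75.8 CPM, and NF-YAs A, B and C had 98.5, 148.5 and 125.8 CPM. Every overexpressing library was above every Empty library, although the highest Empty library (B) came close to the lowest NF-YAl library (D). In NF-YAl against Empty the log2FC was 2.04 (SE 0.436, adjusted p = 0.00368 by edgeR). This call was lost without Empty replicate A (log2FC 1.83, adjusted p = 0.0212), without Empty replicate C (1.79, adjusted p = 0.0207), without NF-YAl replicate B (2.02, adjusted p = 0.0118) and in a fit of the 2 groups alone (2.05, adjusted p = 0.0116). It was kept without Empty replicate B, where the log2FC rose to 2.68, and without NF-YAl replicate A, where it was 1.6. In NF-YAs against Empty the log2FC of 1.59 (SE 0.431) missed the threshold (adjusted p = 0.0127 by edgeR) and passed it without Empty replicate B (2.22, adjusted p = 0.00261), without NF-YAl replicate A or D and under 5 other settings. NF-YAl and NF-YAs were not shown to differ in COL3A1, with a log2FC of 0.45 and a 95% interval of -0.36 to 1.27.

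The balance of COL3A1 to COL1A1 within each library, where scaling between libraries plays no part, set NF-YAl apart from the other lines. The TPM ratio was 4.94, 3.77 and 2.67 in NF-YAl A, B and D, and 0.905, 1.14 and 1.15 in NF-YAs A, B and C. In Empty it was 0.748 and 0.70 in replicates A and C but 1.94 in replicate B. All NF-YAl libraries were thus above all others, and NF-YAs lay within the range of Empty.

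COL5A2 encodes the alpha2 chain of type V collagen and was the most abundant member. It lies on the minus strand at chr2:189896624-190090038, 19151 bp from COL3A1, with the 3' ends of the 2 genes facing each other. Its level was 581.1, 644.7 and 540.9 CPM in Empty, 978.0, 827.8 and 749.5 CPM in NF-YAl, and 679.7, 610.2 and 625.6 CPM in NF-YAs. The NF-YAl libraries were above all others, and Empty and NF-YAs overlapped. The log2FC of 0.53 in NF-YAl against Empty (SE 0.118) passed the adjusted p (0.00453 by edgeR) and not the fold limit, and that in NF-YAs against Empty was 0.12 with a 95% interval of -0.11 to 0.35.

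COL5A1, the alpha1 chain of type V collagen (plus strand, chr9:137533649-137736689), was not called as a gene. It had 205.8, 214.4 and 215.8 CPM in Empty, 239.7, 266.8 and 160.0 CPM in NF-YAl, and 166.1, 197.6 and 188.9 CPM in NF-YAs. The log2FC against Empty was 0.07 in NF-YAl (95% interval -0.24 to 0.37) and -0.20 in NF-YAs (-0.51 to 0.10). COL5A2 exceeded COL5A1 by TPM in all libraries, by 3.06 to 3.68-fold in Empty, 3.79 to 5.73-fold in NF-YAl and 3.78 to 5.01-fold in NF-YAs. The lowest ratio in both overexpressing lines was above the highest in Empty.

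The 2 RefSeq transcripts of COL5A1 split that level differently between lines. Both are 8440 nt long. The transcript NM_000093.4 held 64.8, 70.5 and 77.1% of COL5A1 TPM in the Empty libraries. It held 45.4, 54.3 and 57.4% in those of NF-YAl, and 27.8, 56.1 and 49.8% in those of NF-YAs. All Empty libraries were above all libraries of both other lines, which overlapped. Its alternative, NM_001278074.1, averaged 17.2 ± 2.17 TPM in NF-YAl and 15.4 ± 3.95 TPM in NF-YAs, against 8.53 ± 2.91 TPM in Empty MTSs (SD, n = 3). These shares are RSEM estimates, and no test was run on them.

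**Figure D3:**
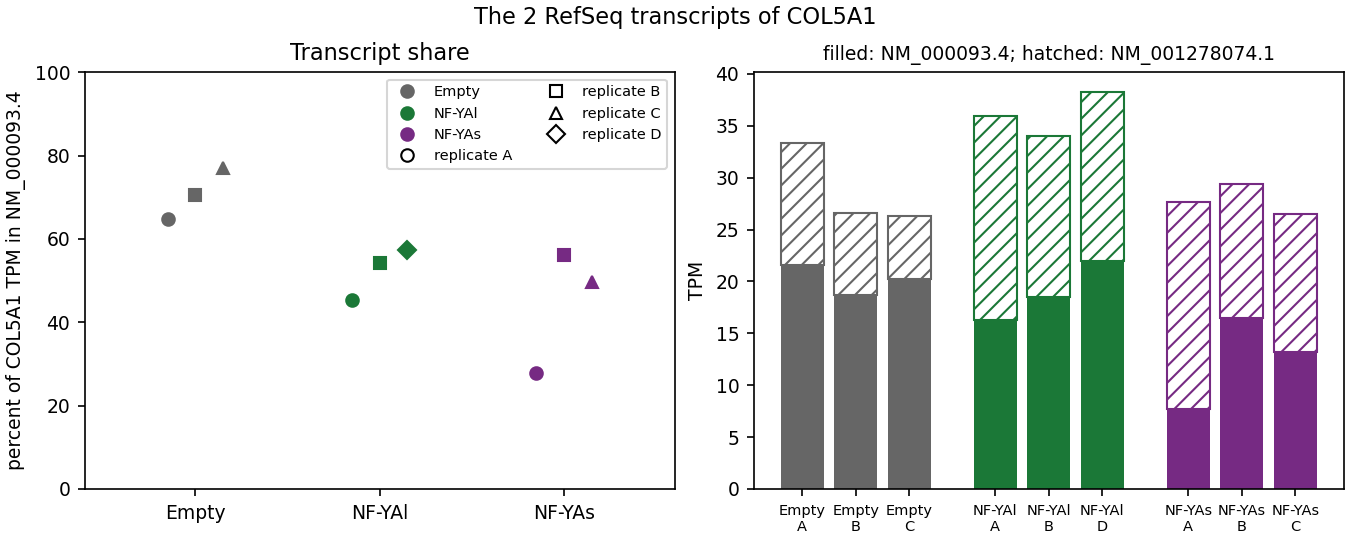
Left, the percent of COL5A1 TPM held by the transcript NM_000093.4 in each library. Right, the TPM of both COL5A1 transcripts stacked per library. The 3 Empty libraries lie at 64.8 to 77.1%, above the 27.8 to 57.4% of the other 6.

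COL5A3, the third chain of type V collagen (minus strand, chr19:10070237-10121180), had the largest fold among the members. Counts were 42, 50 and 46 in NF-YAs A, B and C (2.12 to 2.49 CPM), 7, 16 and 9 in NF-YAl A, B and D, and 6, 5 and 5 in Empty A, B and C. The 3 lines did not overlap. Its log2FC was 3.38 (SE 0.335, adjusted p = 1.61e-05 by edgeR) in NF-YAs against Empty and -2.27 (SE 0.303, adjusted p = 0.000368) in NF-YAl against NF-YAs, and 1.11 in NF-YAl against Empty did not pass (adjusted p = 0.0478). COL5A3 was tested only because it reached the filter in NF-YAs, so the p-values against that line are no separate support. Even in NF-YAs it averaged 0.48 TPM, and COL5A1 exceeded it by 53.1 to 64.7-fold there, against 309.5 to 448.9-fold in NF-YAl and 554.8 to 885.7-fold in Empty.

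COL27A1 lies on the plus strand at chr9:116917817-117074791. Its level was 30.2, 28.5 and 25.2 CPM in Empty, 52.9, 40.1 and 27.7 CPM in NF-YAl, and 79.3, 74.7 and 75.9 CPM in NF-YAs. NF-YAs was again above all others, with NF-YAl between and partly within the range of Empty. The log2FC was 1.45 (SE 0.181, adjusted p = 7.8e-05 by edgeR) in NF-YAs against Empty and 0.52 (adjusted p = 0.0426) in NF-YAl against Empty. In the direct comparison it was -0.93 (adjusted p = 0.00318 by edgeR), under the fold limit, and without NF-YAl replicate A it was -1.17 and called (adjusted p = 0.000105).

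The cartilage chains were low in all lines. COL11A2 (minus strand, chr6:33130458-33160276) had 8.85, 6.95 and 8.07 CPM in Empty, 6.10, 6.50 and 4.40 CPM in NF-YAl, and 7.27, 6.07 and 4.75 CPM in NF-YAs. Its log2FC against Empty was -0.49 in NF-YAl (adjusted p = 0.0832 by edgeR) and -0.40 in NF-YAs (adjusted p = 0.143), and neither passed. COL2A1 (minus strand, chr12:48366750-48398337) had 6 to 12 counts per library, with log2FC of 0.09 and 0.25 against Empty, and a difference was not detectable at this depth. COL11A1 (minus strand, chr1:103342023-103574428) had 0 to 2 counts in Empty, 2 to 9 in NF-YAl and 3 to 8 in NF-YAs, too few for a fold. SOX9, which drives cartilage collagens, was at 41.1 to 56.8 TPM per group, whereas of the other 5 cartilage genes ACAN and COMP averaged at most 0.06 TPM, MATN1 at most 0.23 TPM and MATN3 1.25 to 1.82 TPM. SNORC, a chondrocyte membrane proteoglycan, was at 10.8 TPM in Empty, 5.91 TPM in NF-YAl and 7.66 TPM in NF-YAs, and was called down in NF-YAl (log2FC -1.2, adjusted p = 5.17e-05 by edgeR). COL24A1, the fibrillar collagen outside the 10 genes, is also counted among the fibril partners described below. It had 8 to 14 counts in Empty, 16 to 25 in NF-YAl and 16 to 35 in NF-YAs. Its log2FC of 1.65 in NF-YAs against Empty was called (adjusted p = 0.00822 by edgeR), and the call was kept in 3 of 9 fits that each left out 1 library.

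The genes most like a member over the 9 libraries were found by Pearson's r of log2(CPM + 0.5), given without a p since the points share their lines. For COL5A2 they were CCL25 (r = 0.976), PATJ (0.971) and VPS8 (0.971). Those for COL5A1 were ABCA2 (0.974), ARHGAP17 (0.968) and ASXL1 (0.942), and those for COL5A3 were TYW1 (0.992), LRRC15 (0.989) and ADAM33 (0.989). Among the members themselves, COL5A3 had an r of 0.955 with COL1A1 and 0.924 with COL27A1, but -0.374 with COL5A1 and -0.100 with COL5A2, the other chains of its type. COL5A2 had an r of 0.767 with its neighbour COL3A1 and 0.333 with COL5A1.

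The steps from chain to fibril were described by a list of 63 genes for hydroxylation, folding and export, propeptide removal, cross-linking and fibril partners, of which 54 were tested. In NF-YAl against Empty 5 were called up and 1 down, in NF-YAs against Empty 8 up and 4 down, and in NF-YAl against NF-YAs 6 up and 8 down, beside 4.76% and 3.5%, 5.44% and 3.9%, and 1.74% and 2.86% of all tested genes. The list medians were 0.21, 0.10 and 0.12, beside 0.01, 0.00 and 0.02 for all tested genes. The 1 gene called down in NF-YAl is under the background share. These counts stood at 3 to 8 and 0 to 2, at 6 to 10 and 2 to 5, and at 3 to 7 and 4 to 8 when 1 library was left out. Of the 5 called up in NF-YAl, P4HA3, LOX, COL6A2 and SPARC follow the naming rule. OGN, a small fibril-binding proteoglycan, and the 1 called down, the procollagen protease ADAMTS14, were named after their values were seen. ADAMTS14 had 0.839 to 1.69 CPM in Empty, 0.123 to 0.477 CPM in NF-YAl and 0.215 to 0.498 CPM in NF-YAs. Both overexpressing lines thus lay around the filter's limit of 0.442 CPM, and only Empty was wholly above it. The call of ADAMTS14 is therefore weak support for a fall, and it was kept in 6 of 9 fits that each left out 1 library.

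Of the 5 lysyl oxidases, which cross-link fibrils, LOX was called up in NF-YAl and LOXL1 down in NF-YAs, each against Empty. LOX was 10.7 to 10.9 CPM in Empty, 37.1 to 54.6 CPM in NF-YAl and 14.5 to 16.1 CPM in NF-YAs, and rose in NF-YAl against Empty by a log2FC of 2.04 (adjusted p = 1.61e-06 by edgeR). LOXL1 fell in NF-YAs against Empty (log2FC -1.37, adjusted p = 3.46e-05 by edgeR), from 93.6 to 117 CPM to 39.6 to 43.3 CPM, and stayed at 78.7 to 123 CPM in NF-YAl. In NF-YAl against NF-YAs, LOX (1.53) and LOXL1 (1.33) were called up and LOXL2 (-1.01) and LOXL4 (-1.66) down. The LOXL2 call was kept in 7 of 9 fits that each left out 1 library, and that of LOXL4 in 6 of 9.

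Hydroxylation and propeptide removal gave few calls. P3H3, a prolyl 3-hydroxylase, rose in NF-YAs against Empty (log2FC 1.35, adjusted p = 1.6e-05 by edgeR), from 12.7 to 32.4 CPM on average. In NF-YAl its log2FC was 0.97 (adjusted p = 0.00019 by edgeR), under the fold limit. P4HA3, a catalytic chain of prolyl 4-hydroxylase, was called up in NF-YAl (log2FC 1.49, adjusted p = 0.00368 by edgeR), a call kept in 5 of the 9 fits without 1 library. Its log2FC of 1.15 in NF-YAs missed the threshold (adjusted p = 0.016 by edgeR). ADAMTS3, which removes amino propeptides, rose in NF-YAs (log2FC 1.91) from 4.57 to 5.49 CPM to 16.6 to 21.6 CPM. It also rose in NF-YAl, by 0.86 (adjusted p = 0.00122 by edgeR) and under the fold limit, and was called lower there than in NF-YAs (log2FC -1.06). TLL1, a protease of the carboxy propeptide, was higher in NF-YAl than in NF-YAs (log2FC 1.38, adjusted p = 0.00121 by edgeR). Of 11 chaperone and export genes, only CREB3L1, a transcription factor of secretory genes, was called, in NF-YAl against NF-YAs (log2FC 1.32, adjusted p = 0.00858 by edgeR), and this call was kept in 1 of 9 fits. SERPINH1, the collagen chaperone, was not called in any comparison.

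Fibril partners held the largest shifts of the list. COL6A1 and COL6A2, chains of the beaded-filament type VI collagen, averaged 1043 and 711 CPM in Empty and 4180 and 3836 CPM in NF-YAs, with log2FC of 2.0 and 2.43. In NF-YAl they averaged 2054 and 1807 CPM, and COL6A2 (log2FC 1.34) but not COL6A1 (0.98) passed the fold limit against Empty. COL6A3, the third chain of type VI, went the other way in NF-YAl, from 288 to 400 CPM in Empty to 171 to 185 CPM (log2FC -0.94, adjusted p = 0.000209 by edgeR, under the fold limit), and was at 542 to 676 CPM in NF-YAs (log2FC 0.79). THBS2, a matricellular protein, rose from 0.236 to 0.336 CPM in Empty to 2.34 to 9.31 CPM in NF-YAs (log2FC 4.35, adjusted p = 4.67e-05 by edgeR). SPARC, a collagen-binding protein, rose in both lines, from 267 to 320 CPM in Empty to 954 to 2375 CPM in NF-YAl (log2FC 2.39) and 699 to 779 CPM in NF-YAs (log2FC 1.32); the second call was lost without Empty replicate A (log2FC 1.26, adjusted p = 0.0101). Besides LOXL1, the genes called down in NF-YAs were BGN, PRELP and TNXB, matrix proteins named after their values were seen, of which TNXB was the most abundant at 343 to 372 CPM in Empty and 125 to 139 CPM in NF-YAs. BGN, at 0.748 to 0.874 CPM in Empty and at most 0.108 CPM in NF-YAs, passed the filter only through lines other than NF-YAs. Its call is therefore no separate support for a fall.

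**Figure D4:**
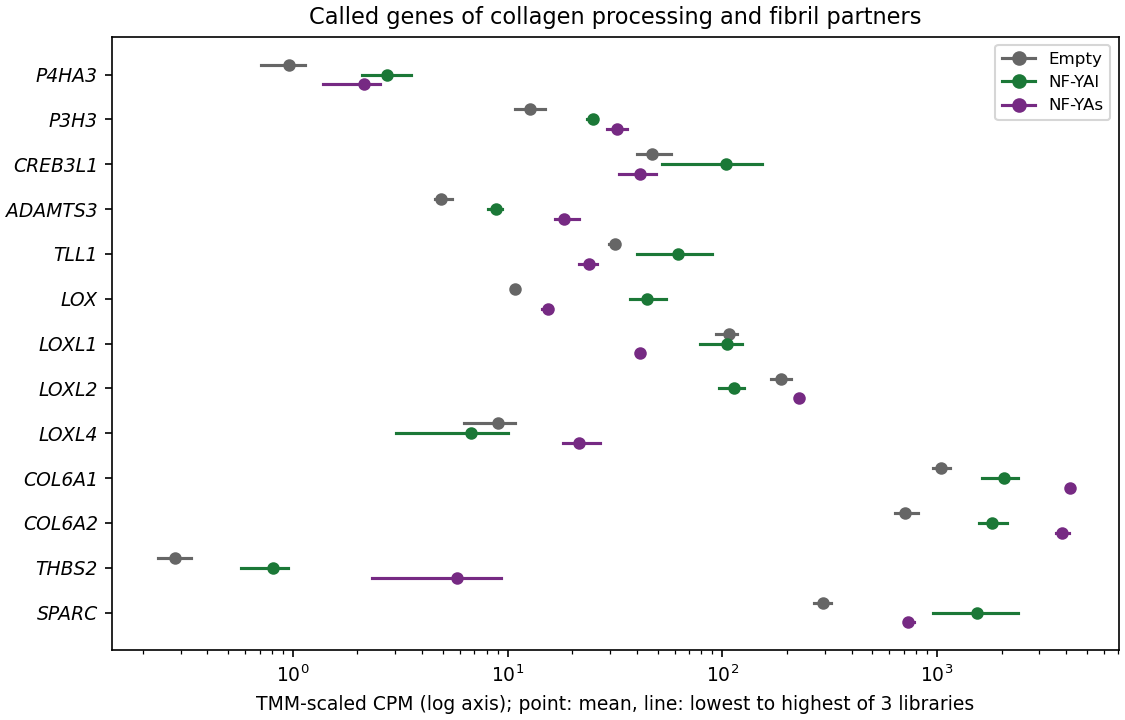
Mean CPM (points, log axis) and the lowest to highest of 3 libraries (lines) of the called genes of collagen processing and fibril partners that the naming rule selected. LOX and SPARC are highest in NF-YAl, and COL6A1, COL6A2, ADAMTS3 and THBS2 in NF-YAs.

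Of 11 tested receptors of fibrillar collagen, 1 was called up and 3 down in NF-YAl against Empty and 1 up and 1 down in NF-YAs against Empty, so apart from the 3 called down these are single genes, beside a background of 4.76% up and 3.5% down in NF-YAl and 5.44% up and 3.9% down in NF-YAs. ITGA2, the alpha chain of a collagen-binding integrin, fell in both lines, by 1.32 in NF-YAl and by 1.18 in NF-YAs on the log2 scale, from 237 to 288 CPM in Empty to 94.5 to 123 CPM. MRC2, an uptake receptor for collagen, rose in both (log2FC 1.34 and 1.23). ADGRG1, a receptor of type III collagen, fell in NF-YAl against Empty (log2FC -1.29, adjusted p = 6.68e-05 by edgeR), with 16.1 to 25.1 CPM against 49.3 to 54.5. OSCAR, another collagen receptor, was also called down in NF-YAl (log2FC -1.17), in 6 of 9 fits without 1 library. Of 6 tested degradation genes, 1 was called up and 1 down in NF-YAl and 2 up and 2 down in NF-YAs, in each case against Empty. The collagenase MMP13 fell in both lines (log2FC -1.75 and -1.21), and MMP1 fell in NF-YAs (log2FC -1.26) and missed the fold limit in NF-YAl (-0.91). MMP9, a gelatinase, rose in both (1.49 and 3.03) but stayed at 6.54 CPM or less. MMP2, the second gene called up in NF-YAs and named after its values were seen, was at 0 CPM in Empty and at most 0.0411 CPM in NF-YAl, so it passed the filter only through the NF-YAs libraries (0.97 to 1.14 CPM), where it had to differ.

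Of 28 genes for factors that act on collagen transcription or RNA, 27 were tested. In NF-YAl against Empty edgeR called 0 up (1 by DESeq2, 8 by either tool at an unadjusted p under 0.05) and 1 down. The background there was 4.76% up and 3.5% down. In NF-YAs against Empty 4 were called up and 1 down, beside 5.44% up and 3.9% down. The single genes called down are near the background share. RUNX2 (log2FC 1.22), FLI1 (2.01) and TGFBR2 (1.16), a receptor of TGF-beta, rose in NF-YAs, as did SOX5 (2.45), whereas SOX6 (-1.91) fell there and LARP6 (-1.05), which binds type I collagen mRNAs, fell in NF-YAl; the last 3 were named after their values were seen. SOX5, at 0.547 to 1.66 CPM in NF-YAs, was under the filter's limit in all Empty and NF-YAl libraries (at most 0.371 CPM) and so passed the filter only through the line in which it was high. The FLI1 call was kept in 6 of 9 fits without 1 library. In NF-YAl against Empty the log2FC was 0.81 for TGFBR2, 1.71 for FLI1, 0.44 for RUNX2, -0.06 for SOX5 and -0.81 for SOX6. LARP6 was at -0.78 in NF-YAs. TGFBR2 and LARP6 passed the adjusted p there (0.000119 and 0.00013 by edgeR) and not the fold limit. RUNX2, FLI1, TGFBR2, SOX6 and LARP6 were not called between NF-YAl and NF-YAs, so their calls do not set these lines apart.

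Markers of other cell states were read beside the collagens. Of 15 mesenchymal markers, of which DCN, LUM and FN1 also stand among the fibril partners and FAP among the degradation genes, 9 were tested. In NF-YAl against Empty 2 were called up and 1 down, beside 4.76% and 3.5% of all tested genes. In NF-YAs against Empty 1 was called up and 1 down, beside 5.44% and 3.9%. These few genes do not describe the list as a whole. PDGFRA rose in both (log2FC 3.6 and 3.92), PDPN in NF-YAl (4.96), and S100A4 fell in both (-2.23 and -2.25); PDPN, at most 0.238 CPM in Empty and 0.507 CPM in NF-YAs, passed the filter through NF-YAl. The summed CPM of the list was 2573 to 3092 in Empty, 2094 to 3106 in NF-YAl and 2562 to 2690 in NF-YAs. Of 6 epithelial markers, EPCAM rose in both lines, KRT8 fell in NF-YAl (log2FC -1.33), and KRT7 (-3.85) and CDH1 (-1.33) fell in NF-YAs, and their summed CPM was 1197 to 1316 in Empty, 781 to 797 in NF-YAl and 731 to 835 in NF-YAs. The part of these markers in the collagen results was not tested.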

How the data were processed

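Total RNA of pooled PC-3 MTSs was sequenced in 9 libraries, 3 per line. Per the labels and the methods, the authors aligned stranded reads to human RefSeq transcripts of hg19 (GRCh37) with Bowtie2 within RSEM. They deposited unnormalized expected counts, the TPM, the effective length and, per transcript, the percent of the gene's TPM. Use of strand in counting is not given in the sources used here, so reads of a member and of antisense transcripts over it could not be told apart; no gene that GENCODE places over a member was among the tested genes.

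The expected counts of genes, rounded to whole numbers, were tested in edgeR 4.0.16 (R 4.3.3) with filterByExpr, TMM and quasi-likelihood F tests over all 9 libraries in 1 fit without covariates. SE is |log2FC| over the square root of F, and intervals are 1.96 SE either side. Alternatives changed the tool (DESeq2 1.42.0, or limma 3.58.1 on log2(TPM + 0.5)), the scaling (RLE, or effective length as an offset), the filter (none, or 10 counts in all libraries), the model (a replicate block, or a separate fit per pair of lines), the threshold (0.05) or the libraries (1 left out at a time). On simulated counts for NF-YAs against Empty (16891 genes), the procedure recovered 98 of 100 genes changed by a |log2FC| of 1.5 and 100 of 100 by 2.5, with 0 unchanged genes called. The changed genes were drawn from those with higher counts, and the simulated spread followed the trend over all genes. Recovery for genes with as few counts as COL5A3 and COL1A2, or as variable as COL3A1, was not measured.

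Libraries of a line differed by more than counting error (chi-square per gene 6.42 to 93.2). The paper reports independent experiments for this RNA-seq. It does not say whether a letter marks an experiment shared between lines, so p-values measure the spread between these libraries. Positions are from GENCODE on GRCh37, and sequences from RefSeq. Some genes of the lists and 1 sequence are not reported here. Depth is given in the report.

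Members and gene lists were chosen with earlier results of these data known. Named were all members, COL24A1, NFYA and, per gene list, up to 4 called genes by |log2FC| with a mean of at least 1 TPM in a group. Named as most alike were the 3 genes with the highest r for the 2 members of highest TPM and the called member with the largest |log2FC| between NF-YAl and NF-YAs.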

Additional observations from a re-analysis of the deposited data

How the results depend on the processing

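Of 54 alternative counts of called members whose reported count was above 0, 46 stayed within 1.5 times it; the other 54, reported as 0, stayed at 0. For NF-YAl against Empty the count of members called up was 0 in a fit of the 2 groups alone, 2 at an adjusted p under 0.05 (COL3A1 and COL5A3), and 0 to 1 when 1 library was left out. For NF-YAs against Empty it was 2 (COL1A1 and COL27A1) with at least 10 counts in every library, since COL5A3 and COL1A2 were then not tested. Members called down in NF-YAl against NF-YAs numbered 1 (COL1A1) with that filter and 1 with log2(TPM + 0.5) in limma. By limma on log2(TPM + 0.5), where the added 0.5 exceeds their mean TPM, COL5A3 (0.86) and COL1A2 (0.57) lost the call in NF-YAs against Empty, and this setting moved the median of all genes to 0.25, 0.15 and 0.11 in the 3 comparisons. Of the 63 fibril genes, those called up in NF-YAl against Empty numbered 8 with the replicate block, 9 at an adjusted p under 0.05 and 3 to 8 with 1 library left out. Those called down there numbered 0 with at least 10 counts, 0 with the block, 0 by TPM and 0 to 2 with 1 library left out. Called down in NF-YAs against Empty were 2 by TPM and 2 to 5 with 1 library left out, and in NF-YAl against NF-YAs 3 were called down by TPM, with 3 to 7 up and 4 to 8 down with 1 library left out.

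Of 527 alternative log2FC of members and NFYA, 10 changed sign, each of a gene that was not called. COL2A1 in NF-YAl against Empty was -0.03 with the block, -0.16 without Empty replicate C and -0.03 without NF-YAl replicate A, and in NF-YAs against Empty it was -0.0022 without Empty replicate C. COL5A1 in NF-YAl against Empty was -0.08 without NF-YAl replicate B. COL11A2 in NF-YAl against NF-YAs was 0.02 with the block, 0.01 with an offset for effective length, 0.08 by TPM, 0.07 without NF-YAl replicate D and 0.06 without NF-YAs replicate A. With 1 library left out, these log2FC ranged from -0.16 to 0.35 (COL2A1) and -0.08 to 0.26 (COL5A1) in NF-YAl against Empty, from -0.0022 to 0.5 (COL2A1) in NF-YAs against Empty and from -0.23 to 0.07 (COL11A2) in NF-YAl against NF-YAs. The cause of these changes was not tested.

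The deviations of same-letter libraries correlated at over 0.1 in 5 of 7 pairs (r of -0.0671 to 0.315). Their mean r was 0.116, against -0.0404 over the 20 pairs with different letters, so same-letter libraries were more alike on average. This did not hold in every pair and the sources do not name shared experiments, so the main fit did not take the letters as pairs. Among the NF-YAs libraries, Empty replicate B and NF-YAl replicate A each correlated best with C (0.0769 and 0.0656) and not with their own letter. With the replicate block, in which NF-YAl replicate D carries a letter of its own and adds nothing to the comparisons, COL3A1 in NF-YAs against Empty had a log2FC of 1.67 and was called (adjusted p = 0.000779 by edgeR), and no other call of a member changed. Depth limits COL2A1, COL11A1, COL1A2 and COL5A3, which had 12 or fewer counts in every Empty library.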
